A study of Homo sapiens with 6 samples.

Results

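The genes described here build the machinery that moves new secretory and membrane proteins into the endoplasmic reticulum (ER), removes their signal peptides, and returns misfolded proteins from the ER to the cytosol for destruction (ER-associated degradation, ERAD). They were taken from a list of 49 symbols, 23 for import and signal peptide cleavage and 26 for degradation. The Ensembl identifiers of the authors' deposited table were matched to GENCODE 29 symbols, and 48 listed genes were found among the 13885 genes of the table, 23 for import and 25 for degradation. DERL3, a derlin typical of professional secretory cells, was not in the table and was not analysed here.

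The study used BE(2)-C, an established human neuroblastoma line with a wild-type genotype in the labels, and asked how gene expression changes when PCIF1 is depleted. PCIF1 is the enzyme that methylates the adenosine next to the mRNA cap, giving m6Am. Of the 6 RNA-seq samples, 3 were transfected for 24 h with an siRNA against PCIF1 (siPcif1) and 3 with a scrambled siRNA (siScram). All 6 were then treated with 10 µM all-trans retinoic acid (ATRA), an agent that drives neuroblastoma cells toward a neuronal state, for 4 days with fresh medium and ATRA every 24 h, so every comparison is between ATRA-treated cells and no sample without ATRA was analysed here. A single siRNA was used against PCIF1, and the labels name 1 cell line. The labels do not tell whether the 3 samples per group are separate cultures, so each p-value reflects only how far these samples differ from each other, which may be technical variation.

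Proteins bound for the secretory pathway carry a signal peptide or a membrane segment that the signal recognition particle (SRP) binds as it leaves the ribosome. The SRP receptor hands the ribosome to the SEC61 channel, the translocon-associated protein (TRAP) complex sits beside that channel, and signal peptidase cuts the signal peptide off. In ERAD, lectins and mannosidase-like proteins mark misfolded glycoproteins, membrane ubiquitin ligases such as HRD1 (encoded by SYVN1) tag them, and the VCP ATPase (p97) pulls them out for the proteasome. Many of these genes are textbook targets of the unfolded protein response, whose transcription factors are XBP1, ATF6 and ATF4; XBP1 and ATF6 act through ER stress response elements in promoters.

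The promoters are shown because XBP1 and ATF6 read short DNA words. Whether these words bear on the members' fold changes was not tested. RefSeq promoter windows of GRCh38.p14, 250 bases before to 50 bases after the start, were available for 42 of the 48 members; DERL1, SRPRA, UFD1, SPCS1, RNF139 and MARCH6 were not matched. Both strands were searched for UPRE (TGACGTGG), ERSE (CCAAT, then 9 bases of any kind, then CCACG), ERSE-II (ATTGG, then 1 base of any kind, then CCACG) and the core CCACG, which is part of ERSE and ERSE-II and of the UPRE read on the other strand. The words were chosen with results of these data known. Below are the 30 bases around each match to ERSE-II or UPRE, on the strand of the gene, with the matched word in capitals.
HERPUD1 (ERSE-II): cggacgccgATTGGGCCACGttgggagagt
SEC62 (UPRE): ccccctcctcgctCCACGTCAgagggaacc
SRP19 (UPRE): aagtcttcatgCCACGTCAgagactagaga
SSR3 (UPRE): tctgataacagCCACGTCAgcaaggaaact
SSR4 (UPRE): tcagggaggggCCACGTCAgtgctgccaga
UBE2J1 (UPRE): cgaagctactgCCACGTCAgggcaacttca
VCP (UPRE): ttgcggccaatTGACGTGGcgttactaggc

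In GRCh38.p14 these windows lie at chr16:56932016-56932045 (+) for HERPUD1, chr3:169966777-169966806 (+) for SEC62, chr5:112861164-112861193 (+) for SRP19 and chr3:156554148-156554177 (-) for SSR3. Those of SSR4, UBE2J1 and VCP lie at chrX:153794528-153794557 (+), chr6:89352935-89352964 (-) and chr9:35072796-35072825 (-). UPRE occurred in 6 of 42 members (14.3%), against 0.729% of all 35116 windows and 1.23% of the 9831 genes of the table with a window. Of those 6 members, SSR3, SSR4, UBE2J1 and VCP were lower in the authors' deposited table, SEC62 rose and SRP19 did not pass the DESeq2 test. By the same test 60.4% of the 48 members and 17.7% of all genes were lower. ERSE-II occurred in HERPUD1 alone among the 42 members (2.38%), against 0.0541% of windows and 0.132% of the table's genes. ERSE occurred in none of them, against 0.0769% of windows and 0.163% of the table's genes. The core CCACG was in 33 of 42 members (78.6%), against 38.1% of windows and 57.6% of the table's genes. SYVN1, SELENOK, SEL1L and SEC61A1, which also fell, have a window but hold none of UPRE, ERSE and ERSE-II. A match is a run of letters in a window, and no binding was measured.

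The targeted gene comes first because it sets the direction of every value. PCIF1 (ENSG00000100982.11, chromosome 20, 45934628 to 45948023 in hg38) had a log2 fold change of -0.82 (SE 0.19) in the authors' deposited table (DESeq2 adjusted p of 0.000167). That is 56.6% of the siScram level, with a 95% interval from the SE of 43.7 to 73.4%. The table's header does not state which group was divided by which, and its name lists the scrambled group first, so the order was taken from the sign of PCIF1: a negative value here means lower after siPcif1. If the order were the other one, every sign would turn and PCIF1 would be higher in the samples labelled siPcif1.

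The whole table moved in both directions. At the threshold of 0.05 on the DESeq2 adjusted p, the authors' deposited table held 34.0% of its 13885 genes as changed, 17.7% lower and 16.3% higher, and 3.23% were lower by at least 1 on the log2 scale. The median of all log2 fold changes was 0.0059, and the SE had a median of 0.181 over all genes of the authors' deposited table, against 0.152 over the members. No value per library was analysed here, so the spread of each gene is its SE, the depth of the libraries is unknown, and whether the samples of the groups overlap cannot be seen. The neuroblastoma markers PHOX2A, HAND2, ISL1, GATA3, TH, DBH and MYCN were all present, with mean normalised counts from 73.2 (GATA3) to 4718 (PHOX2A) in the authors' deposited table. Of these 7 markers, 1 was lower and 3 higher by DESeq2, and their part in the members' values was not tested.

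ER import and degradation genes were mostly lower after siPcif1. Of the 48 members, 29 fell (against 17.7% of all genes), 4 rose (against 16.3%) and 15 did not pass the DESeq2 test in the authors' deposited table, and the median of their log2 fold changes was -0.44 against 0.0059 for all genes. A fall of at least 1 on the log2 scale was seen in 10 members, 3 of import and 7 of degradation, against 3.23% of all genes. Tested against an absolute log2 change of 0.3, 6 import and 9 degradation members were lower, against 5.21% of all genes, and with the Wald statistics scaled to their own robust spread, 1 and 4, against 0.821%. The SEs have the pattern of fold changes shrunken toward 0, which would understate the change of genes with few reads.

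**Figure D1:**
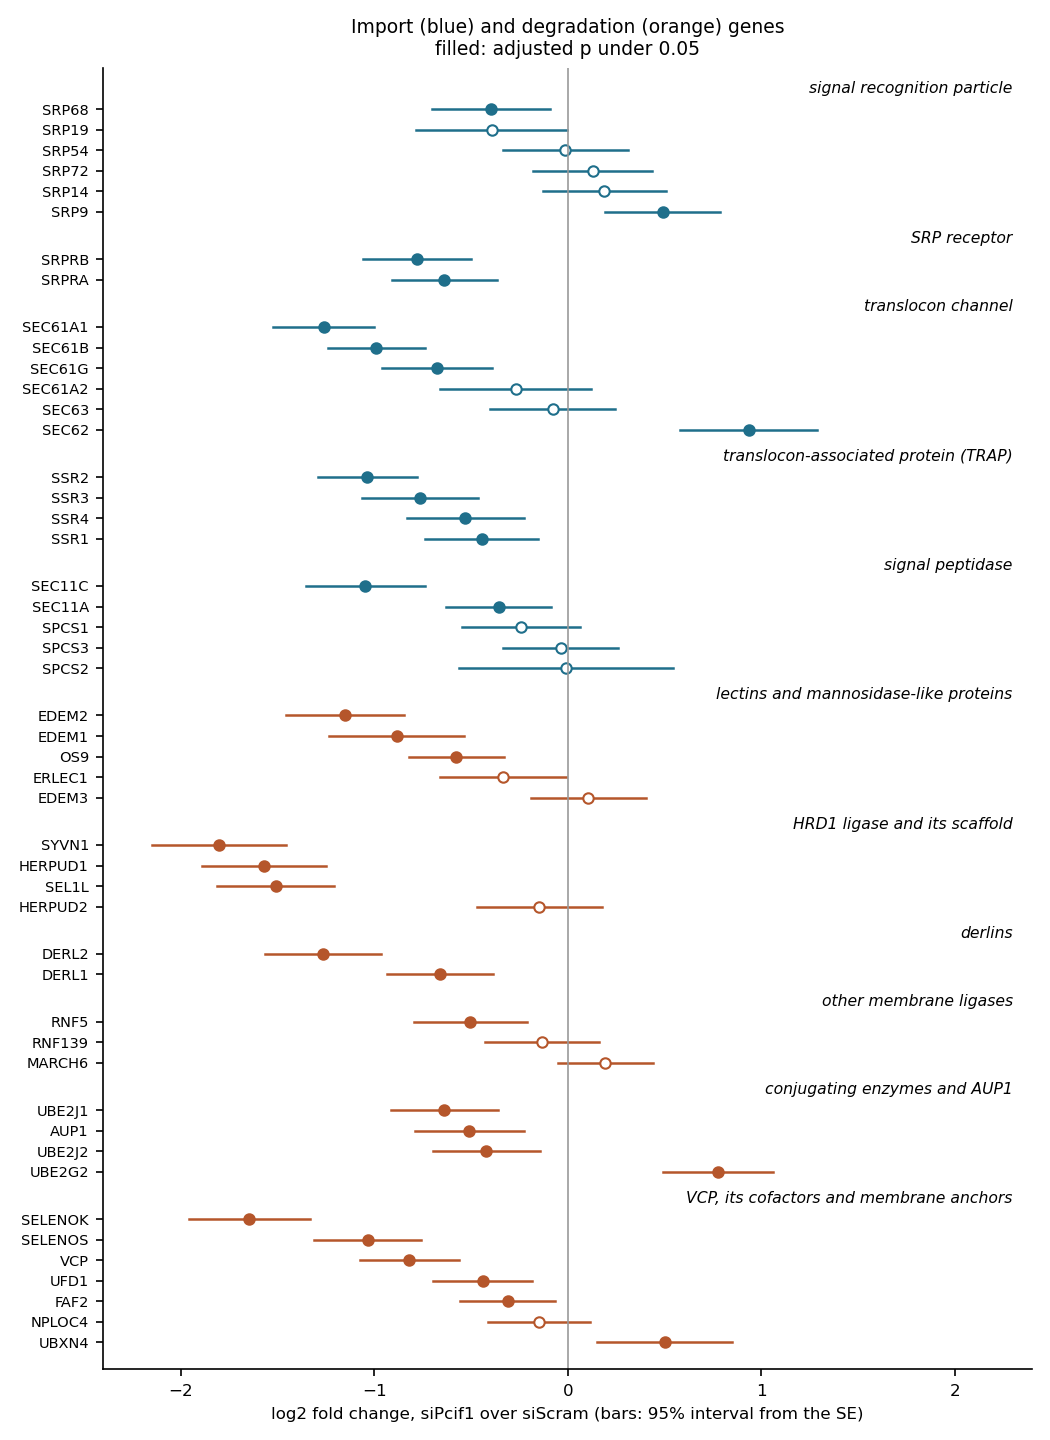
Log2 fold change (siPcif1 over siScram, x axis) of each of the 48 members in the authors' deposited table, grouped by role, with bars for the 95% interval from the SE and filled points for DESeq2 adjusted p under 0.05. Import genes (blue) run from -1.26 (SEC61A1) to 0.93 (SEC62) and degradation genes (orange) from -1.80 (SYVN1) to 0.78 (UBE2G2).

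The lowest import gene was SEC61A1, the pore of the channel, while by role the SRP receptor and TRAP had the lowest medians, -0.71 and -0.65, against -0.47 for the channel genes. Of the 23 import and signal peptidase genes, 12 fell (52.2%, against 17.7% of all genes), 2 rose (8.70%, against 16.3%) and 9 did not pass by DESeq2 in the authors' deposited table, with a median log2 fold change of -0.39. The part that binds signal peptides in the cytosol differed in its counts from the parts in the membrane. Of 6 SRP genes 1 fell (16.7%, near the 17.7% of all genes). In the membrane parts 11 of 17 fell: 2 of 2 SRP receptor, 3 of 6 channel, 4 of 4 TRAP and 2 of 5 signal peptidase genes. That split between roles is a description and was not tested.

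SRP proteins form the cytosolic particle with the 7SL RNA. SRP9, which with SRP14 forms the Alu-binding end of the particle, rose with a log2 fold change of 0.49 (SE 0.15) and a DESeq2 adjusted p of 0.00566 in the authors' deposited table, or 141% of the siScram level. SRP68, which with SRP72 binds the S domain of the RNA, fell by 0.40 on the log2 scale (SE 0.16) with a DESeq2 adjusted p of 0.0344 in the same table. The rest of the particle did not pass. SRP14 was at 0.19, SRP72 at 0.13 and SRP54, the GTPase that grips the signal peptide, at -0.01 in the authors' deposited table, and SRP19, an assembly protein of low level, was at -0.39 with a DESeq2 adjusted p of 0.112. The partners SRP9 and SRP14 had 95% intervals of 0.20 to 0.79 and -0.13 to 0.51, which overlap. SRP14 shares its name with 4 annotated pseudogenes, SRP68 with 3, SRP72 with 2 and SRP9 with 1, so reads of these genes could be split or shared in ways the deposited values do not show.

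Both subunits of the SRP receptor, the docking site on the ER membrane, were lower. SRPRB, the membrane-anchored GTPase, fell by 0.78 on the log2 scale (SE 0.14; DESeq2 adjusted p of 1.03e-06) in the authors' deposited table. SRPRA, the GTPase that meets SRP54, fell by 0.64 (SE 0.14; DESeq2 adjusted p of 5.52e-05) in that table. They stood at 58.3% and 64.3% of the siScram level, against 99.2% for SRP54.

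The genes of all subunits of the main SEC61 channel, SEC61A1, SEC61B and SEC61G, fell. SEC61A1 (ENSG00000058262.9, chromosome 3, 128051641 to 128071683 in hg38), the pore-forming subunit, had a log2 fold change of -1.26 (SE 0.13) in the authors' deposited table (DESeq2 adjusted p of 4.67e-19). Its level was 41.7% of siScram (95% interval 34.8 to 50.0%), and it ranked 213 from the lowest of 13885 genes. The small subunits SEC61B and SEC61G had -0.99 (SE 0.13) and -0.68 (SE 0.15), per the authors' deposited table; their DESeq2 adjusted p were 8.24e-13 and 3.83e-05. The 3 genes thus stood at 41.7%, 50.4% and 62.6% of the siScram level. SEC61A2, a second pore gene, had a mean normalised count of 85.5 against 4579 for SEC61A1 in the authors' deposited table, or 45.2 against 1260 per kilobase of the main transcript. Its log2 fold change of -0.27 (SE 0.20) did not pass (DESeq2 adjusted p of 0.307) in the authors' deposited table, and its 95% interval of -0.66 to 0.12 does not meet that of SEC61A1, whose bound nearest to 0 stands at 50.0% of siScram.

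SEC62 and SEC63 help proteins enter after their synthesis is complete, and they did not follow the channel. SEC62 (ENSG00000008952.16, chromosome 3, 169966635 to 169998373 in hg38), which also acts as a receptor for autophagy of the ER, rose with a log2 fold change of 0.93 (SE 0.18) and a DESeq2 adjusted p of 3.87e-06 in the authors' deposited table. That is 191% of the siScram level (95% interval 150 to 244%). SEC63, a J-domain protein that recruits the chaperone BiP to the channel, stood at -0.08 (SE 0.17; DESeq2 adjusted p of 0.752) in the authors' deposited table. SEC62 carries the UPRE word shown above, as do SRP19, which did not pass, and the fallen members SSR3, SSR4, UBE2J1 and VCP.

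The 4 TRAP genes, whose products contact the channel and help some signal peptides open it, all fell. SSR2 was lowest, with a log2 fold change of -1.04 (SE 0.13; DESeq2 adjusted p of 1.30e-13) per the authors' deposited table, 48.8% of the siScram level. SSR3 was at -0.76 (SE 0.15; DESeq2 adjusted p of 9.59e-06) in that table. SSR4 and SSR1 stood at -0.53 and -0.44 (the authors' deposited table; DESeq2 adjusted p of 0.00324 and 0.0120). SSR4 had the highest mean normalised count per kilobase of all members, 8548, with SSR2 next at 3904, SEC61B at 2413 and SEC61G at 1964.

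SSR4 is also rich in G and C. Its main transcript has a GC content of 58.6%, and after removal of the trend that all genes follow with GC content, length and expression its log2 fold change was -0.04. The same step moved SSR1, at 40.6% GC, from -0.44 to -0.72, and left SSR2 at -0.71 and SSR3 at -0.86. Exons of SSR4 overlap those of IDH3G on the other strand.

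Of the 5 signal peptidase genes, 2 fell (against 17.7% of all genes), and these encode its catalytic subunits. SEC11C, one of a pair of alternative catalytic subunits, fell with a log2 fold change of -1.05 (SE 0.16) and a DESeq2 adjusted p of 1.12e-09 in the authors' deposited table, to 48.4% of the siScram level. SEC11A, the other one and the more abundant per kilobase (823 against 345 mean normalised counts), fell by 0.36 on the log2 scale (SE 0.14) in the authors' deposited table (DESeq2 adjusted p of 0.0333). Their 95% intervals, -1.35 to -0.74 and -0.63 to -0.09, do not meet, but the difference between the genes was not tested. With the trend in GC content, length and expression removed, 1 of the 5 genes was lower (against 12.7% of all genes). SEC11C was then at -0.83, and SEC11A, at -0.17, no longer passed. The accessory subunits SPCS1, SPCS2 and SPCS3, shared by both forms of the enzyme, were at -0.24, -0.01 and -0.04 (the authors' deposited table), none past the DESeq2 threshold. SPCS2 had the widest error among the members (SE 0.28) and shares its name with 4 annotated pseudogenes.

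Degradation was led by the HRD1 ligase complex. Of the 25 measured, 17 fell (68.0%, against 17.7% of all genes), 2 rose (against 16.3%) and 6 did not pass by DESeq2 in the authors' deposited table, with a median log2 fold change of -0.51. The members with the lowest values of all 48 were SYVN1, SELENOK, HERPUD1 and SEL1L, which ranked 50, 79, 92 and 111 from the lowest of the 13885 genes. SEC61A1, the lowest import gene, came just after DERL2.

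Substrate selection was lower in part. EDEM2 and EDEM1, mannosidase-like proteins that take part in the trimming of mannose from misfolded glycoproteins, fell with log2 fold changes of -1.15 (SE 0.16) and -0.88 (SE 0.18), per the authors' deposited table, and DESeq2 adjusted p of 6.70e-12 and 1.12e-05. EDEM3, the third of the family, was at 0.11 (SE 0.15; DESeq2 adjusted p of 0.632) in that table, with a 95% interval of -0.19 to 0.40 that lies above those of EDEM2 (-1.46 to -0.85) and EDEM1 (-1.24 to -0.53). OS9, a lectin that brings trimmed glycoproteins to the HRD1 complex, fell by 0.58 on the log2 scale (SE 0.13; DESeq2 adjusted p of 5.18e-05) in the authors' deposited table. ERLEC1, the other lectin of this kind, was at -0.33 (SE 0.17; DESeq2 adjusted p of 0.108) there and did not pass.

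The HRD1 complex, the best known ERAD ligase, had the lowest median log2 fold change of the roles, -1.54 over 4 genes. SYVN1 (ENSG00000162298.18, chromosome 11, 65121780 to 65134533 in hg38), which encodes the ligase HRD1, had a log2 fold change of -1.80 (SE 0.18) in the authors' deposited table (DESeq2 adjusted p of 6.00e-22). It was left at 28.7% of the siScram level (95% interval 22.6 to 36.5%). SEL1L, which holds HRD1 stable and receives substrates from OS9, stood at -1.51 (SE 0.15; DESeq2 adjusted p of 2.92e-20) in the authors' deposited table, or 35.1% of siScram (28.5 to 43.3%). HERPUD1 (ENSG00000051108.14, chromosome 16, 56932048 to 56944863 in hg38), a membrane protein that helps assemble the complex, was at -1.57 (SE 0.16; DESeq2 adjusted p of 2.08e-19) in that table, or 33.7% of siScram (27.0 to 42.1%). Its promoter holds the ERSE-II word shown above.

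HERPUD2 is the paralogue of HERPUD1. HERPUD2 had a mean normalised count of 182 against 3637 for HERPUD1 in the authors' deposited table, or 59.5 against 1235 per kilobase. Its log2 fold change of -0.15 (SE 0.16) did not pass (DESeq2 adjusted p of 0.530) in the authors' deposited table. The 95% intervals were -0.47 to 0.18 for HERPUD2 and -1.89 to -1.25 for HERPUD1, and the difference itself was not tested. Exons of SYVN1 overlap those of MRPL49 on the other strand and of FAU and MIR6751 on its own, so part of its reads may belong to a neighbour; how shared reads were counted is not stated in the labels.

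Derlins are rhomboid-like membrane proteins that form part of the exit path with HRD1. DERL2 fell with a log2 fold change of -1.26 (SE 0.15) and a DESeq2 adjusted p of 1.52e-14 in the authors' deposited table, to 41.6% of the siScram level. DERL1 fell by 0.66 on the log2 scale (SE 0.14; DESeq2 adjusted p of 3.16e-05) in the authors' deposited table, to 63.4%. Their intervals, -1.56 to -0.96 and -0.93 to -0.38, come close without meeting. Exons of DERL2 overlap those of MIS12 on the other strand.

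Of the 3 other membrane ligases on the list, 1 fell (against 17.7% of all genes). RNF5, which acts on membrane proteins with derlin-1, fell by 0.50 on the log2 scale (SE 0.15; DESeq2 adjusted p of 0.00401) in the authors' deposited table. RNF139 (TRC8), a ligase of sterol-regulated degradation, was at -0.13, and MARCH6, the human counterpart of the yeast ligase Doa10, was at 0.19; neither passed the DESeq2 test in the authors' deposited table (adjusted p of 0.535 and 0.232). The 95% interval of MARCH6 was -0.05 to 0.44.

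Ubiquitin-conjugating enzymes went both ways. UBE2J1, the membrane-bound enzyme that works with HRD1, fell by 0.64 on the log2 scale (SE 0.14; DESeq2 adjusted p of 7.13e-05) in the authors' deposited table. Its relative UBE2J2 fell by 0.42 (SE 0.14; DESeq2 adjusted p of 0.0116) in the same table, and the intervals of the pair overlap. UBE2G2 (ENSG00000184787.18, chromosome 21, 44768580 to 44802019 in hg38), a soluble enzyme that AUP1 recruits to the ER membrane, rose with a log2 fold change of 0.78 (SE 0.15) and a DESeq2 adjusted p of 1.81e-06 in the authors' deposited table. It reached 171% of the siScram level (95% interval 141 to 209%), while AUP1 fell by 0.51 on the log2 scale (SE 0.14; DESeq2 adjusted p of 0.00236) in that table. Exons of AUP1 overlap those of HTRA2 on the other strand.

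At the extraction step, the motor VCP and the membrane proteins SELENOK and SELENOS that bind it fell. VCP fell with a log2 fold change of -0.82 (SE 0.13) and a DESeq2 adjusted p of 1.04e-08 in the authors' deposited table, to 56.7% of the siScram level (95% interval 47.5 to 67.7%). SELENOK and SELENOS are small selenoproteins that recruit VCP near the derlins. SELENOK (ENSG00000113811.10, chromosome 3, 53884410 to 53891988 in hg38) stood at -1.65 (SE 0.16; DESeq2 adjusted p of 2.15e-22) in the authors' deposited table, or 32.0% of siScram (25.7 to 39.7%). SELENOS was at -1.03 (SE 0.14; DESeq2 adjusted p of 1.21e-11) there, or 48.8% of siScram. SELENOK shares its name with 3 annotated pseudogenes.

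UFD1 and NPLOC4 form the ubiquitin-binding cofactor of VCP. UFD1 fell by 0.44 on the log2 scale (SE 0.13; DESeq2 adjusted p of 0.00369) in the authors' deposited table, and its partner NPLOC4 was at -0.15 (SE 0.13; adjusted p of 0.417 by DESeq2) there. Their 95% intervals, -0.69 to -0.19 and -0.41 to 0.11, overlap, and their difference was not tested. FAF2, an anchor that binds VCP at the ER and on lipid droplets, fell by 0.31 on the log2 scale (SE 0.13; DESeq2 adjusted p of 0.0417) in that table. UBXN4 (erasin), another ER anchor of VCP, rose with a log2 fold change of 0.50 (SE 0.18; DESeq2 adjusted p of 0.0187) in the authors' deposited table.

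**Figure D2:**
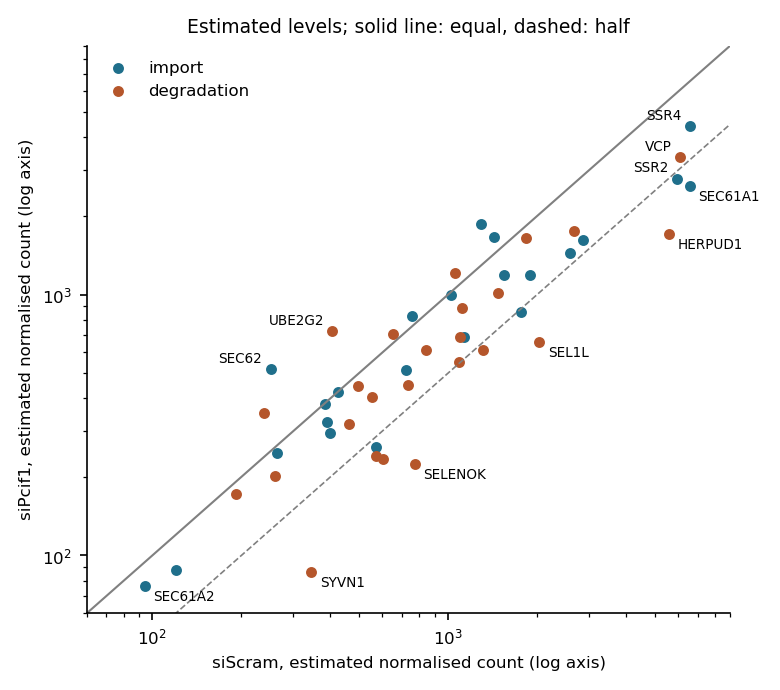
Mean normalised count of each member in siScram (x axis) and siPcif1 (y axis), both on log axes, estimated from the mean and the unshrunken fold change of the authors' deposited table; the solid line marks equal levels and the dashed line a level of 50% of siScram. SEC61A1 and HERPUD1 lie below the dashed line with SEL1L, SELENOK and SYVN1, and SEC62 and UBE2G2 lie above the solid line.

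In levels, the fall reached both abundant and scarce members. Estimated from the mean and the unshrunken fold change of the authors' deposited table, SEC61A1 went from 6556 to 2601 normalised counts, HERPUD1 from 5575 to 1699, and SYVN1 from 345 to 86.2. SEC62 went from 251 to 518 by the same estimate. Among members with a mean normalised count of at least 1000, 8 of 11 import genes and 5 of 7 degradation genes fell by DESeq2 in the authors' deposited table, against 31.8% of all genes at that level. Below it, 4 of 12 import genes and 12 of 18 degradation genes fell, against 16.1% of all such genes.

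Import and degradation are set side by side as a description, with no test. Degradation genes had the higher share of falls (68.0% against 52.2%), the lower median (-0.51 against -0.39) and 7 of the 10 falls of 1 or more (log2) listed by the authors' deposited table. In both groups 2 genes rose. The order of the medians did not hold under every choice of members. With the wider lists described below added, the median was -0.36 over 61 import genes and -0.25 over 68 degradation genes. Among members with a mean normalised count of at least 1000, the median was -0.64 for import and -0.58 for degradation. The shares of falls there were 72.7% and 71.4%. Among members under 1000 the medians were -0.25 and -0.47, and the shares of falls 33.3% and 66.7%.

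**Figure D3:**
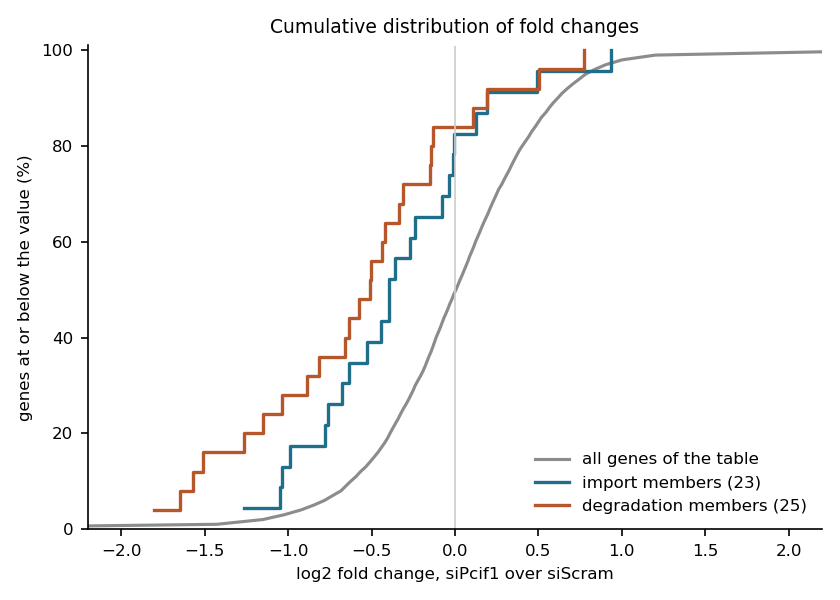
Cumulative share of genes (y axis, %) by log2 fold change (x axis) in the authors' deposited table, for all 13885 genes (grey), the 23 import members (blue) and the 25 degradation members (orange). Both member curves lie to the left of the grey one over most of its range, with medians of -0.39 and -0.51 against 0.0059, and they meet near 0, below which 19 import and 21 degradation members lie.

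The order also turned in the members that lack the word TCAAGT in the main transcript, a word picked out in earlier results of these data. Of the 48 members 33 hold it (68.8%), against 53.6% of all genes. Among the 6 import members without it 4 fell (median -0.60), and among the 9 degradation members without it 6 fell (median -0.58), by DESeq2 in the authors' deposited table. Of the members with the word, 8 of 17 import and 11 of 16 degradation genes fell, and over all genes 17.7% did.

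The members differ in base composition and length, which move with the fold change over the whole table. The median log2 fold change was 0.36 in the bin of 1388 genes lowest in GC content and -0.27 in the bin with the highest, in the authors' deposited table. The fallen members had a median GC content of 49.1%, close to the 48.8% of all genes, while the fallen genes of the whole table had 55.1%. The 4 members that rose had a median of 38.6%. With the trend in GC content, length and expression removed, 12.7% of 13877 genes were lower and 12.5% higher, and 10 import and 15 degradation members were lower, 1 of each higher. The medians were then -0.32 for import and -0.36 for degradation. SEL1L and DERL2, both with about 39.4% GC, moved further from 0 in that fit, to -1.76 and -1.46. SEC62 kept a positive value of 0.59 with an adjusted p of 0.00727 from the deposited SE, and UBE2G2 one of 0.87, whereas SRP9 and UBXN4 no longer passed.

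**Figure D4:**
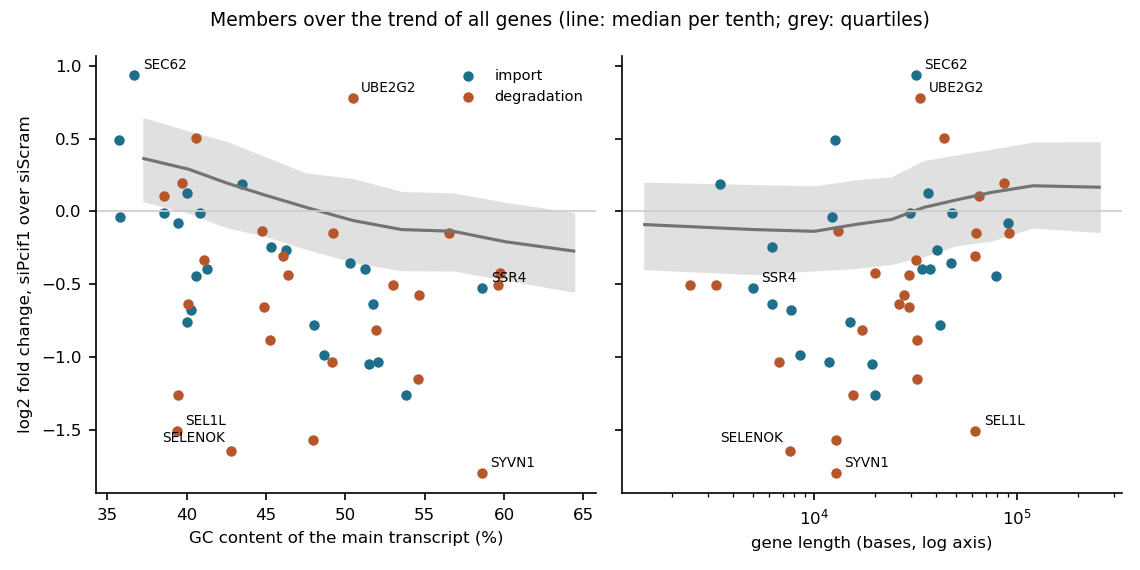
Log2 fold change per the authors' deposited table (y axis) against GC content of the main transcript (left, %) and gene length (right, bases, log axis) for import (blue) and degradation (orange) members; the line is the median and the grey band the quartiles of all genes in 10 bins of equal size. The line runs from 0.36 in the lowest bin of GC content to -0.27 in the highest, and SYVN1, SELENOK and SEL1L lie far below the band in both panels.

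PCIF1 acts on transcripts that start with adenosine, so the annotated first base was counted. It was A in 14 of 48 members (29.2%), against 29.9% of all genes. By class it was A in 4 of 23 import members (17.4%) and in 10 of 25 degradation members (40.0%). Among the 29 members that fell it was A in 8 (27.6%), and among the 4 that rose in 2. The annotated start of a main transcript may differ from the one used in these cells, and m6Am was not measured in these samples.

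Wider lists of the same 2 processes were also chosen with results of these data known. Of 38 further import genes 14 fell and 3 rose, and of 43 further degradation genes 13 fell and 5 rose, by DESeq2 in the authors' deposited table, where 17.7% of all genes were lower and 16.3% higher. The chaperones that work at the luminal side of SEC61 stood lowest. Of 7, 6 fell, with a median of -1.26. HYOU1, an exchange factor of BiP, stood at -2.18 (SE 0.14, DESeq2 adjusted p of 1.20e-48) in the authors' deposited table. HSPA5, which encodes BiP itself, was at -1.81 (SE 0.20, adjusted p of 3.22e-18 by DESeq2) there. DNAJC1, a J-domain protein, was the one that did not pass. DNAJB9, which also binds misfolded ERAD substrates, stood at -1.70 (SE 0.17) in the authors' deposited table.

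Other insertion machines of the ER membrane had counts as follows, beside 17.7% lower and 16.3% higher over all genes. Of the 10 genes of the ER membrane protein complex (EMC), an insertase for membrane segments, 3 fell and none rose by DESeq2 in the authors' deposited table, with a median of -0.18. With an unadjusted p under 0.05, 5 of the 10 would pass, against 43.2% of all genes. Of the 7 GET genes, which insert tail-anchored proteins, UBL4A alone fell (-0.41; DESeq2 adjusted p of 0.0202) in the authors' deposited table. The 9 genes of the multipass translocon, which folds proteins with several membrane segments, had 2 falls, 2 rises and a median of 0.18. RAB5IF was at -1.27 (SE 0.20; DESeq2 adjusted p of 9.79e-09) and CCDC47 at 0.56 (SE 0.16; DESeq2 adjusted p of 0.00330) in the authors' deposited table. NOMO3, the other gene of that list that rose, has near-identical copies in NOMO1 and NOMO2, so its reads may be split among them. Of 5 TRAM and signal peptide peptidase genes, 2 fell and 1 rose. HM13, the signal peptide peptidase, fell by 0.77 on the log2 scale (SE 0.16, DESeq2 adjusted p of 2.94e-05) in the authors' deposited table, and TRAM1 also fell. TRAM1L1, with a mean normalised count of only 44.4, rose by 0.76 (SE 0.24, DESeq2 adjusted p of 0.00951) in that table.

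Among further degradation genes, ligases and scaffolds had 6 falls and 1 rise of 18, beside the same shares of all genes (17.7% and 16.3%). RNF185, a close relative of RNF5, stood at -1.08 (SE 0.15; DESeq2 adjusted p of 1.48e-10) in the authors' deposited table, and TMUB2, a scaffold with a ubiquitin-like domain, at -0.91 (SE 0.14; DESeq2 adjusted p of 5.02e-09). Soluble factors on the side of VCP and the proteasome had 3 falls and 2 rises of 15, near the shares of all genes, with a median of 0.17. Of 10 measured genes of glycan trimming and reduction, 4 fell and 2 rose. ERP29, a luminal protein of the disulfide isomerase family, stood at -0.85 (SE 0.13; DESeq2 adjusted p of 3.68e-09) in the authors' deposited table, and DNAJB14, a J-domain protein of the ER membrane, at 0.95 (SE 0.20; DESeq2 adjusted p of 3.04e-05). FBXO2 and FBXO6 were not in the table.

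**Figure D5:**
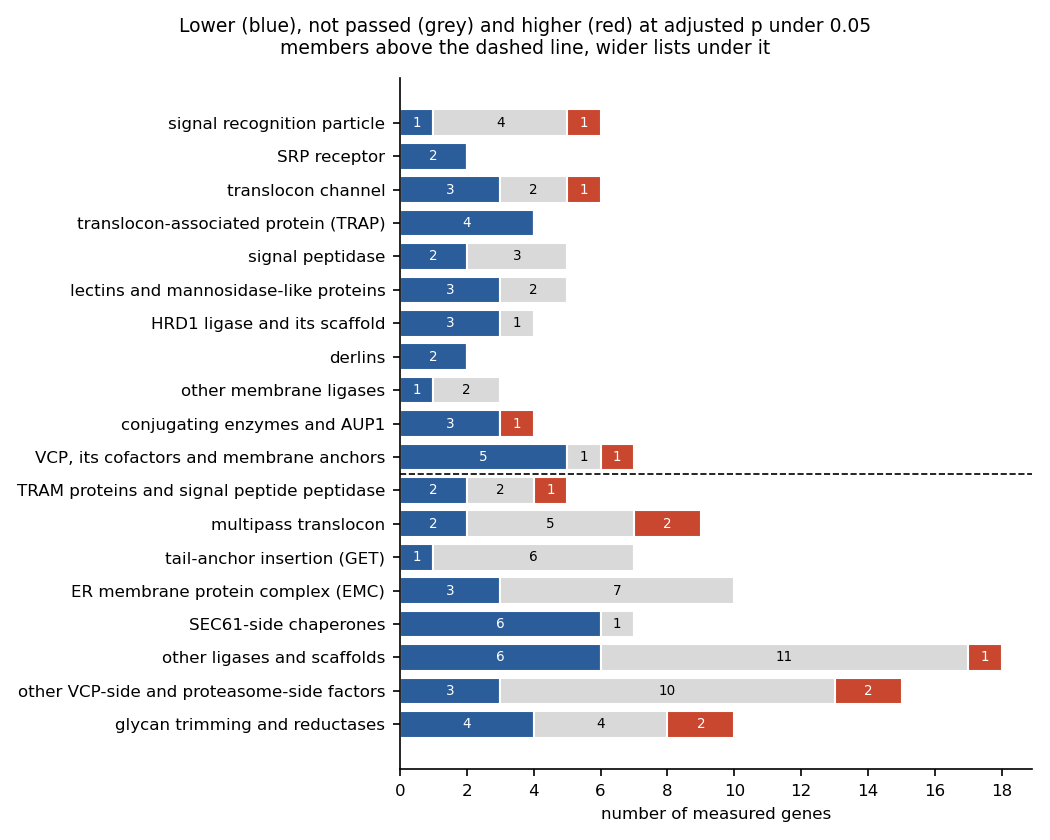
Number of measured genes (x axis) in each role that were lower (blue), did not pass (grey) or were higher (red) by the DESeq2 test (threshold 0.05) of the authors' deposited table, with the 48 members above the dashed line and the wider lists under it. All 4 TRAP genes, both SRP receptor genes and both derlins were lower, as were 1 of 6 SRP genes and 1 of 7 GET genes, beside 17.7% of all genes.

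Genes of ER stress regulators, among them the 3 named in the background, were mostly lower as well. The list held XBP1, ATF6, ATF6B, ERN1, EIF2AK3, ATF4, CREB3 and CREB3L2. Of 8 listed, 7 fell (against 17.7% of all genes) and none rose (against 16.3%) by DESeq2 in the authors' deposited table, with a median log2 fold change of -0.86; the 7 with an unadjusted p under 0.05 (43.2% of all genes) were these falls. XBP1 was at -1.32 (SE 0.16; DESeq2 adjusted p of 1.60e-15) and ATF4 at -1.28 (SE 0.14; adjusted p of 1.07e-16 by DESeq2) in the authors' deposited table. ATF6 fell by 0.66 on the log2 scale there, and its relative ATF6B, at -0.12, did not pass. Their part in the members' values was not tested, and splicing of XBP1, which makes its active form, cannot be read from a count per gene.

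Overlapping annotation touches 21 of the 48 members, whose exons share bases with an exon on the other strand, 12 of import and 9 of degradation. The libraries were made with a strand-specific kit per the labels' protocols, and how the counting used strand is not stated there. Without these members, 6 of 11 import genes and 10 of 16 degradation genes fell by DESeq2 in the authors' deposited table, against 17.7% of all genes. Their part in the falls was not tested.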

How the data were processed

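Libraries were poly(A)+ and strand-specific, from Trizol-extracted RNA after DNase, per the labels' protocols. DESeq2, HTSeq, STAR 2.7.10a, cutadapt 3.7, bcl2fastq 2.20, deepTools and the build hg38 are listed, without role or order, per the submitters' processing notes. Which annotation and strand setting served for counting is not given in the sources. One table was used, with 6 columns per gene and no values per library. Per the file headers, the authors deposited the mean of normalised counts (a signal that is never negative), the log2 fold change and its SE (log2 values), the Wald statistic (a score), and the p-value with its adjusted value. The deposited adjusted p-values equal a Benjamini-Hochberg adjustment over the 13885 genes. Depth per library is unknown, so precision is read from the SE, 0.119 to 0.295 in the deposited table.

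A gene is called lower or higher by the adjusted p of the authors' deposited table, at a threshold of 0.05; no test was made over a list. Intervals are the log2 fold change ± 1.96 SE. The SE never exceeded 0.295, the pattern of a normal prior on the fold change; unshrunken values were estimated on that assumption, and percentages of siScram use the deposited, shrunken fold changes. Of the genes, 13877 matched GENCODE 29, 13271 with the same identifier version, which gave symbols, main transcripts, GC content and overlaps. The trend fit regresses the fold change on GC content, transcript and gene length and mean, keeps the deposited SE and adjusts over 13877 genes; it was tested on simulated data. Every member past the threshold is named with its values, with those needed to describe a role or a pair of paralogues. Of each wider list, at most 2 genes of smallest adjusted p are named, besides those needed to explain a count; HSPA5, ATF6 and ATF6B were named after their values were seen. Members, lists, words and alternatives were chosen with earlier results of these data known. Analyses used pandas 2.3.3, scipy 1.17.1, numpy 2.4.6 and, for figures, matplotlib 3.10.9, under Python 3.11.15.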

Additional observations from a re-analysis of the deposited data

How the results depend on the processing

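No paired analysis was possible because the deposited table has no values per library; for the same reason leaving out each replicate was not run. Tested against an absolute log2 change of 0.3, 1260 genes changed in place of 4716, with 6 import members lower and 1 higher, and 9 degradation members lower and 1 higher. With Wald statistics scaled to their robust SD of 2.44, 135 genes changed (0.821% of all genes lower). In that setting 1 import member (SEC61A1) and 4 degradation members (SYVN1, SELENOK, HERPUD1, SEL1L) were lower and 0 of each higher. The deposited DESeq2 test with unadjusted p under 0.05 counts 15 import and 20 degradation members in either direction, against 43.2% of all genes. Without members overlapping an exon on the other strand, 6 import members were lower and 1 higher, and 10 degradation members lower. Without members with TCAAGT, 4 import members were lower and 1 higher (median -0.60), and 6 degradation members lower and 1 higher. With the wider lists, 26 import genes were lower and 5 higher, and 30 degradation genes lower and 7 higher (median -0.25). In these last 3 settings the cause is that members were left out or added. The test was the same, with 17.7% of all genes lower and 16.3% higher. One import member rose with a change of at least 0.5, 1 degradation member with an adjusted p under 0.01, and 1 of each with the trend removed. The trend fit ended the calls of AUP1, RNF5, SEC11A, SRP68, SRP9, SSR4, UBE2J2 and UBXN4 and added ERLEC1 and SRP19. The other settings (a threshold of 0.1, centring on the median, a minimum mean of 100) kept the counts within 1.5 times, undoing the shrinkage was run for the medians only, and no called member changed direction in any setting. For the settings that change the test, the cause was not tested.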

Other observations

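The following lists were chosen after values of these data were seen and carry no test. Of 10 ER-phagy receptor genes, which deliver parts of the ER to lysosomes, 5 fell (against 17.7% of all genes) and SEC62 alone rose (against 16.3%) by DESeq2 in the authors' deposited table, with a median log2 fold change of -0.38 against 0.0059 for all genes. CCPG1 was at -0.63 (SE 0.20; DESeq2 adjusted p of 0.00996) and RTN3 at -0.61 (SE 0.13; DESeq2 adjusted p of 3.86e-05) in the authors' deposited table, while RETREG1, the receptor also called FAM134B, was at 0.08 with a mean normalised count of only 36.5 and did not pass. SEC62 thus rose while both the SEC61 channel and most called receptors of this list fell. With the trend in GC content, length and expression removed, 3 of the 10 were lower (against 12.7% of all genes). Under the same fit 1 was higher (against 12.5%), and the median was -0.27.

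Of 26 measured mitochondrial protein import genes, 5 fell and 4 rose, close to the 17.7% and 16.3% of all genes, and the median was -0.03, by DESeq2 in the authors' deposited table. TOMM20, a receptor of the outer membrane, was at 0.85 (SE 0.16; DESeq2 adjusted p of 1.09e-06) in the authors' deposited table, and TIMM17A, a channel subunit of the inner membrane, at -0.85 (SE 0.14; DESeq2 adjusted p of 4.21e-08). The difference between this list and the ER import genes was not tested.

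Of 18 measured selenoprotein genes, 6 fell (against 17.7% of all genes) and 1 rose (against 16.3%) by DESeq2 in the authors' deposited table, with a median of -0.29. The 6 falls include the members SELENOK and SELENOS. With the trend in GC content, length and expression removed, 4 were lower (against 12.7% of all genes) and the median was -0.03. SELENOM, a luminal ER selenoprotein, was at -1.19 (SE 0.19; DESeq2 adjusted p of 2.05e-08) in the authors' deposited table, beside the members SELENOK and SELENOS, while SELENOF, SELENOT and SELENON, also of the ER, were at 0.19, 0.15 and -0.08 and did not pass. SELENOI, a phospholipid synthesis enzyme, was the one that rose, at 0.72 (SE 0.14; DESeq2 adjusted p of 9.56e-06) in that table.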
